A study of Mus musculus with 24 samples.

Results

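A set of 38 genes of the skeletal muscle fibre was followed through mammary gland RNA of mice that had received progesterone or oil. The genes were chosen by symbol, for parts of the contractile apparatus, calcium handling and energy supply of muscle, and each was read from the probe set with the highest mean among those that carry its symbol alone. They are 38 of 18193 genes with such a probe set on the array. An array's own median intensity served as the border of low values, and 35 of the 38 genes lay above it on at least 3 of the 24 arrays and were tested with 12317 other genes. The other three were slow fibre genes: Tnni1 lay above the median on 0 arrays (intensity 8.02 to 53.4), Tnnc1 on 1 (19.2 to 112) and Myoz2 on 2 (19.5 to 80.5).

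All mice were nulliparous Balb/c females that had been ovariectomized at 6 weeks of age and left for 2 weeks, so every group, controls included, was without ovaries. Progesterone mice received 1 mg of the hormone in 100 µl of sesame oil under the skin each day, and their controls received the oil alone. Glands were taken 4, 16, 28 or 76 h after the first injection. This gave 8 groups of 3 arrays, and each array held pooled RNA of 5 mice, so a value is a mean over a pool and the spread between arrays is a spread between pools. The sources used here do not give which glands were taken or how they were freed from neighbouring tissue.

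Skeletal muscle contracts when myosin of the thick filament pulls on actin of the thin filament, after calcium released from internal stores has bound troponin. Each fibre makes 1 main type of myosin heavy chain. Slow, oxidative type I fibres use Myh7 and are rich in myoglobin. Fast fibres run from the oxidative type IIA (Myh2) over type IIX (Myh1) to the glycolytic type IIB (Myh4), the main type in many limb and trunk muscles of the mouse. Most other proteins of the sarcomere have fast and slow forms as well. The mammary gland holds epithelium, fat and stroma, and its own contractile cells, the myoepithelium, use smooth muscle genes. Skeletal muscle is no part of the gland, but sheets of it lie beneath the skin and in the body wall on which the glands rest.

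The labelled tissue carried its defining transcripts. All 10 luminal epithelial genes and all 8 white adipocyte genes of 2 marker lists that were on the array passed the filter. Array medians lay between 62.8 and 70.2, and arrays of a group correlated with r from 0.966 to 0.993 over all genes.

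The proximal promoters of the 3 fast myosin heavy chains are shown because these members share a gene cluster and are high together on some arrays, yet part on others. Myh4 followed the other members closely over the 24 arrays (r = 0.92), Myh1 (r = 0.75) and Myh2 (r = 0.66) less so. Myh2, Myh1 and Myh4 lie on mouse chromosome 11 within one cluster. The 250 bases before each RefSeq start (GRCm38.p6, plus strand, 5′ to 3′) are given in lower case, with capitals for matches to an E box with the letters CAGCTG, a MEF2 consensus or a CArG box.
Myh2, chr11:67170777-67171026: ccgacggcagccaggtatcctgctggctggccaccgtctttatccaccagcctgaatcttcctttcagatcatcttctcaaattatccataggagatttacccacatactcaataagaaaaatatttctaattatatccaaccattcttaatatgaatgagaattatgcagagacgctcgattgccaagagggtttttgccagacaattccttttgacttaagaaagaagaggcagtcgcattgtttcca
Myh1, chr11:67199852-67200101: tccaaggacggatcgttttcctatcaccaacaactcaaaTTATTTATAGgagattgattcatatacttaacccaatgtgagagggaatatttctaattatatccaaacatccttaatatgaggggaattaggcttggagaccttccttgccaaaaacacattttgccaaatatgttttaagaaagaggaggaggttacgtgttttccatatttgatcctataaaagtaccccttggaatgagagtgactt
Myh4, chr11:67237562-67237811: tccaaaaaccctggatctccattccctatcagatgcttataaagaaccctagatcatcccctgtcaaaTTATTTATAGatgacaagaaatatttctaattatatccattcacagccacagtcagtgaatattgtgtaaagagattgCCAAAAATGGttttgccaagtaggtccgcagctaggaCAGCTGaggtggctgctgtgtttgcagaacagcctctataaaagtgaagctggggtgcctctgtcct
The Myh4 window held 1 match to each of the 3 motifs, the Myh1 window 1 MEF2 match and the Myh2 window none. E boxes are the letters bound by the MyoD family, MEF2 factors and serum response factor are known to act on the other motifs, and a match is a description of letters only. RefSeq windows were found for 31 of the 38 genes, with 38 starts in all. Searched on both strands, the letters CAGCTG stood in 50% of these windows (19 of 38) and in 13% of the windows of all 32851 mouse starts. The second E box form, CACCTG, stood in 10 (26.3%, all starts 17.2%), and a short core of MEF2 sites in 3 (7.89%, all starts 3.2%). The longer MEF2 consensus, which overlaps that core, matched 6 windows (15.8%, all starts 2.92%), and the CArG box matched 5 (13.2%, all starts 1.47%). Windows of 1 gene can overlap, so that a site of Mb, Tnni1 or Ldb3 was counted more than once. Counted by gene, 17 of 31 held CAGCTG and 4 held a CArG box. The shares of all starts were counted by window.

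Muscle transcripts were present on every array, at levels that also differed between arrays of the same group, in some groups more than in others. A muscle index was formed for each array as the mean, over the 35 genes, of the log2 deviation from the gene's own mean over 24 arrays. In oil arrays it was 0.74, 0.52 and 0.32 at 4 h, 0.06, 1.20 and 0.99 at 16 h, -0.51, -0.44 and -0.87 at 28 h and then 0.38, 0.37 and -1.08 at 76 h. In progesterone arrays it was 0.31, 0.12 and -0.50 at 4 h, 0.22, 0.30 and -0.15 at 16 h, 0.53, -0.90 and 0.16 at 28 h and then -0.86, -0.55 and -0.36 at 76 h. The highest array was thus replicate 2 of the oil group at 16 h, the lowest replicate 3 of the oil group at 76 h, and the distance between them was 2.28 on the log2 scale, or 4.87-fold. The pooled SD of the index within groups, 0.503, was about as large as the SD of the 8 group means, 0.477. In these bulk samples, fewer muscle cells and less muscle RNA per cell cannot be told apart.

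**Figure D1:**
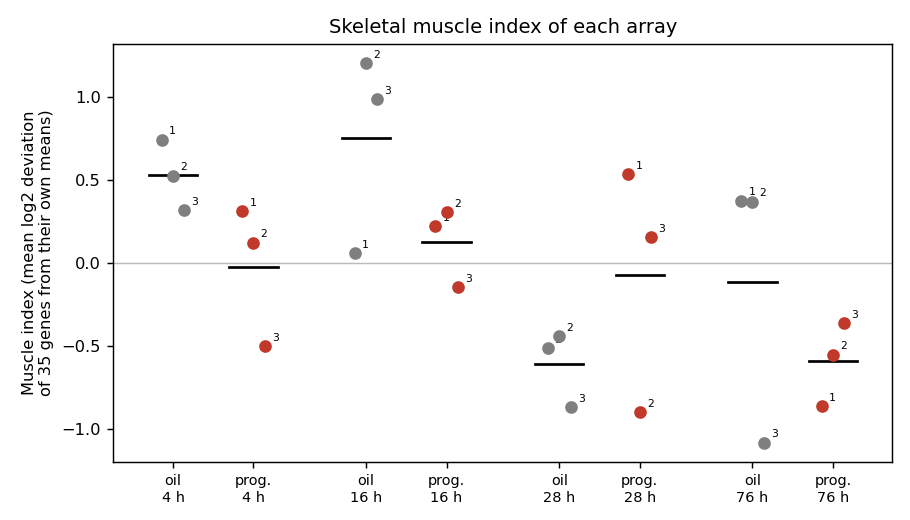
Muscle index of each of the 24 arrays (points, replicate numbers beside them; gray oil, red progesterone) with the group means (bars), by time in h; the index is the mean log2 deviation of 35 genes. The 3 oil arrays at 28 h and the 3 progesterone arrays at 76 h all lie below 0, while replicate 3 of oil at 76 h (-1.08) and replicate 2 of progesterone at 28 h (-0.90) lie far from the other arrays of their groups.

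The summed intensity of the 38 genes ran from 16270 on the lowest of these arrays to 96440 on the highest, or from 0.103% to 0.584% of the intensity of all probe sets. The group means of this share were 0.349% ± 0.0306 (SD, n = 3) in oil and 0.279% ± 0.113 in progesterone at 4 h, and 0.480% ± 0.141 and 0.302% ± 0.0221 at 16 h. They were 0.166% ± 0.0297 in oil and 0.280% ± 0.107 in progesterone at 28 h, and 0.261% ± 0.137 and 0.181% ± 0.0444 at 76 h. Oil was thus above progesterone at 3 of the 4 times and below it at 28 h, and the arrays of the groups overlapped at all 4 times.

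Most of the 35 genes moved from array to array as a block, and as a set they varied far more within groups than other genes did. Their median SD within groups was 0.634 on the log2 scale against 0.171 for all tested genes. Of the 35, 25 had an SD above 0.5, against 1.66% of all genes, and 30 lay above the 95th percentile of all genes. For 25 of the 35, r with the index of the other members was above 0.8 over the 24 arrays, and the range was -0.10 (Myl3) to 0.98 (Ryr1). These correlations describe arrays that share groups and preparation, and carry no test.

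**Figure D2:**
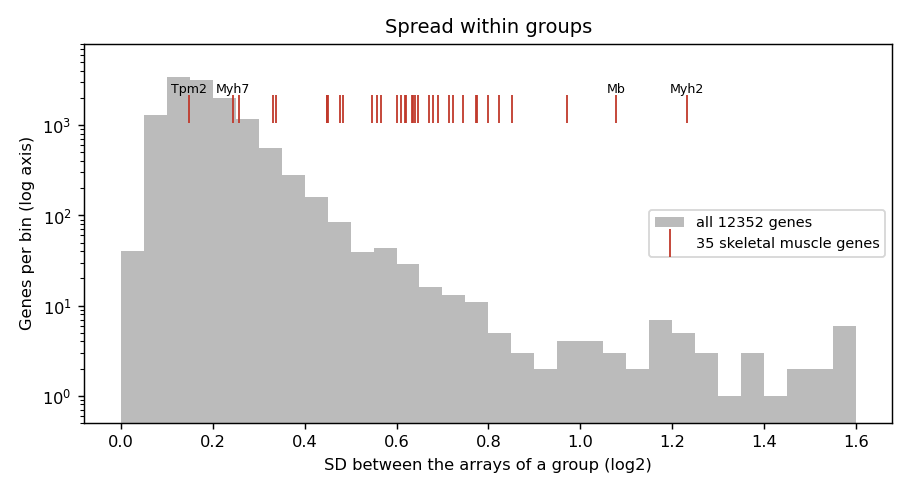
Histogram of the SD within groups (log2, horizontal axis) of all 12352 tested genes on a log count axis, with 1 red tick for each of the 35 muscle genes; the last bin holds all higher values. Tpm2 (0.147) and Myh7 (0.244) sit among ordinary genes, and Mb (1.08) and Myh2 (1.23) sit farthest to the right of the ticks.

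Replicate 2 of oil at 16 h held the highest value of 25 of the 35 genes, among them Acta1, Ckm, Ttn, Ryr1 and Myh4. Replicate 1 of oil at 4 h held the highest value of 7 others: Myh1, Myh2, Myh7, Mybpc1, Tnnt1, Actn2 and Mb. At the low end, replicate 3 of oil at 76 h held the lowest value of 18 genes, and replicate 2 of progesterone at 28 h that of 5: Myh1, Myh2, Mybpc1, Actn2 and Mb. Different pools of mice thus set the extremes of these sets, each of which holds genes of more than 1 fibre class.

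**Figure D3:**
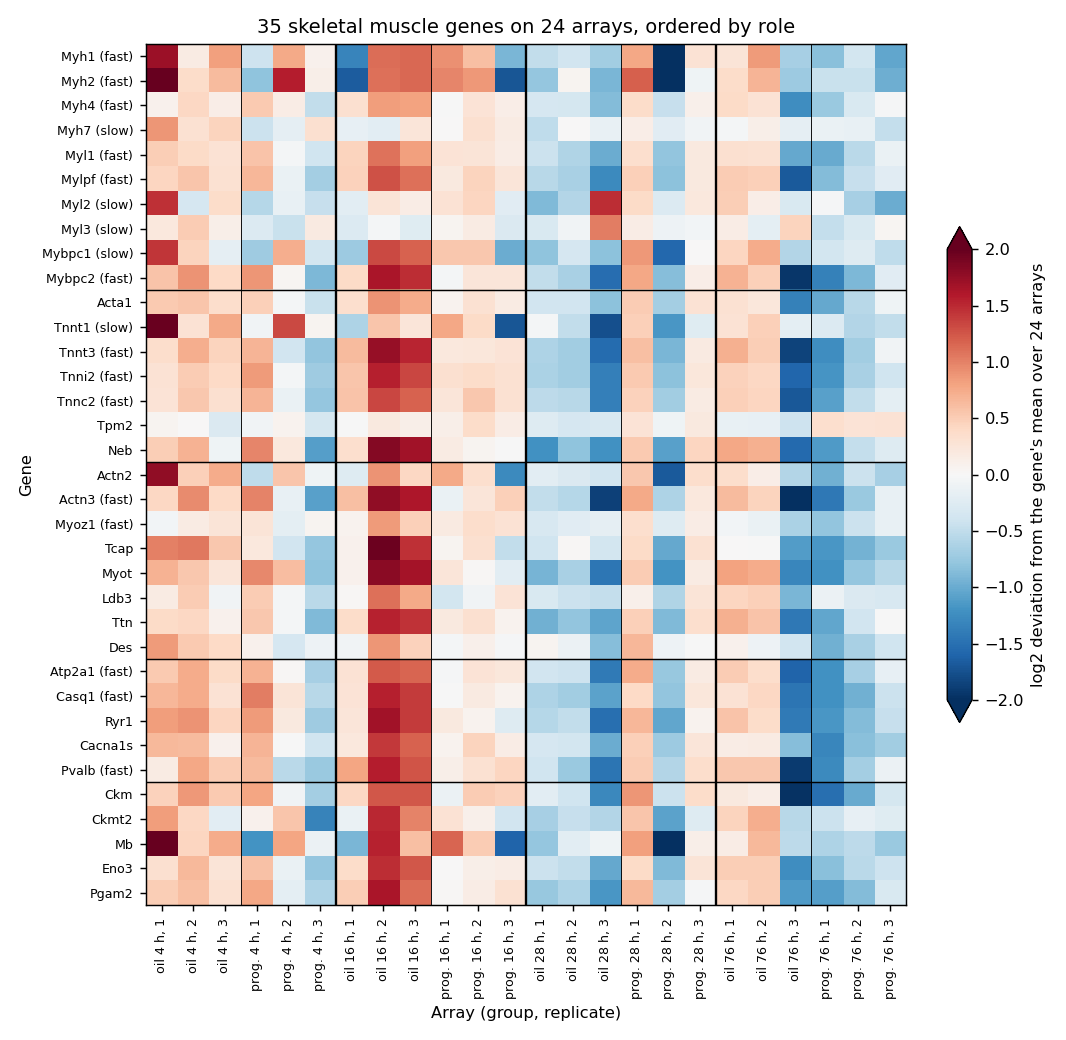
Log2 deviation of each of the 35 tested genes (rows, ordered by role, with the fibre type where it is known) from its own mean over the 24 arrays (columns), red above and blue below, with the colour scale ending at 2 and -2. Most rows share 1 pattern, with oil at 16 h (replicates 2 and 3) red and oil at 28 h blue, while Myh1, Myh2, Mybpc1, Tnnt1, Actn2 and Mb differ from it on single arrays and Tpm2 is nearly flat.

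Myosin heavy chains came first in this contrast. Myh4, the heavy chain of type IIB fibres, read 4552, 5692 and 4696 at 4 h, 5352, 7599 and 7453 at 16 h, 3376, 3366 and 2352 at 28 h and then 5550, 5232 and 1804 at 76 h in oil arrays. In progesterone arrays Myh4 read 6128, 4758 and 3033 at 4 h, 4260, 5188 and 4676 at 16 h, 5491, 3098 and 4573 at 28 h and then 2549, 3464 and 4205 at 76 h. Its range was 4.21-fold, its lowest array was replicate 3 of oil at 76 h, and the oil and progesterone arrays overlapped at 4, 28 and 76 h.
Myh1, the heavy chain of type IIX fibres, read 2960, 1008 and 1589 at 4 h, 361, 1948 and 2005 at 16 h, 638, 694 and 555 at 28 h and then 1077, 1631 and 568 at 76 h in oil arrays. In progesterone arrays Myh1 read 679, 1521 and 953 at 4 h, 1704, 1369 and 477 at 16 h, 1546, 173 and 1106 at 28 h and then 505, 702 and 437 at 76 h. The range was 17.1-fold, and the groups overlapped at all 4 times.
Myh2, the heavy chain of type IIA fibres, read 1059, 302 and 365 at 4 h, 73.9, 508 and 523 at 16 h, 138, 244 and 125 at 28 h and then 303, 378 and 142 at 76 h in oil arrays. In progesterone arrays Myh2 read 136, 699 and 256 at 4 h, 461, 430.5 and 71.8 at 16 h, 542, 36.3 and 221 at 28 h and then 173, 172 and 120.1 at 76 h. It had the widest SD within groups of all members, 1.23, over a 29.2-fold range. The spread lay between pools of 1 group, as in oil at 16 h, where replicate 1 stood far below the other two, and the oil and progesterone arrays overlapped at all 4 times.

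Myh2 followed Myh1 with r = 0.96 over 24 arrays, but Myh4 with r = 0.44, and Myh1 followed Myh4 with r = 0.52. On replicate 1 of oil at 16 h the log2 deviation from the gene's mean was -1.67 for Myh2 and 0.33 for Myh4. Replicate 3 of progesterone at 16 h was alike, with -1.71 for Myh2 and 0.13 for Myh4. On the opposite side, replicate 1 of oil at 4 h deviated by 2.17 for Myh2 and 0.09 for Myh4. The 3 genes are close relatives, and how far their probes bind a neighbour's transcript was not tested. A second probe set of Myh1 gave log2 differences between progesterone and oil of -0.88 at 4 h and -0.87 at 76 h, where the first gave -0.76 and -0.89. The 2 probe sets of Myh4 were less alike and followed the muscle index with r = 0.92 and r = 0.69.

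Myh7, the heavy chain of slow type I fibres and of the heart ventricle, read 95, 63.7 and 70.5 at 4 h, 46.4, 44.6 and 61.1 at 16 h, 36.4, 51.8 and 46.5 at 28 h and then 50.4, 56 and 45.9 at 76 h in oil arrays. In progesterone arrays Myh7 read 38.5, 45.5 and 64.3 at 4 h, 52.2, 64.3 and 57.8 at 16 h, 56.9, 44.4 and 49.1 at 28 h and then 47.2, 46.7 and 37.1 at 76 h. It exceeded the array median on 3 arrays only, the 3 oil arrays of 4 h, so the slow heavy chain was near background in most of the series, and its range was 2.61-fold. Its SD within groups, 0.244, was the second smallest of the members. The groups at 4 h overlapped in 1 array of each.

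**Figure D4:**
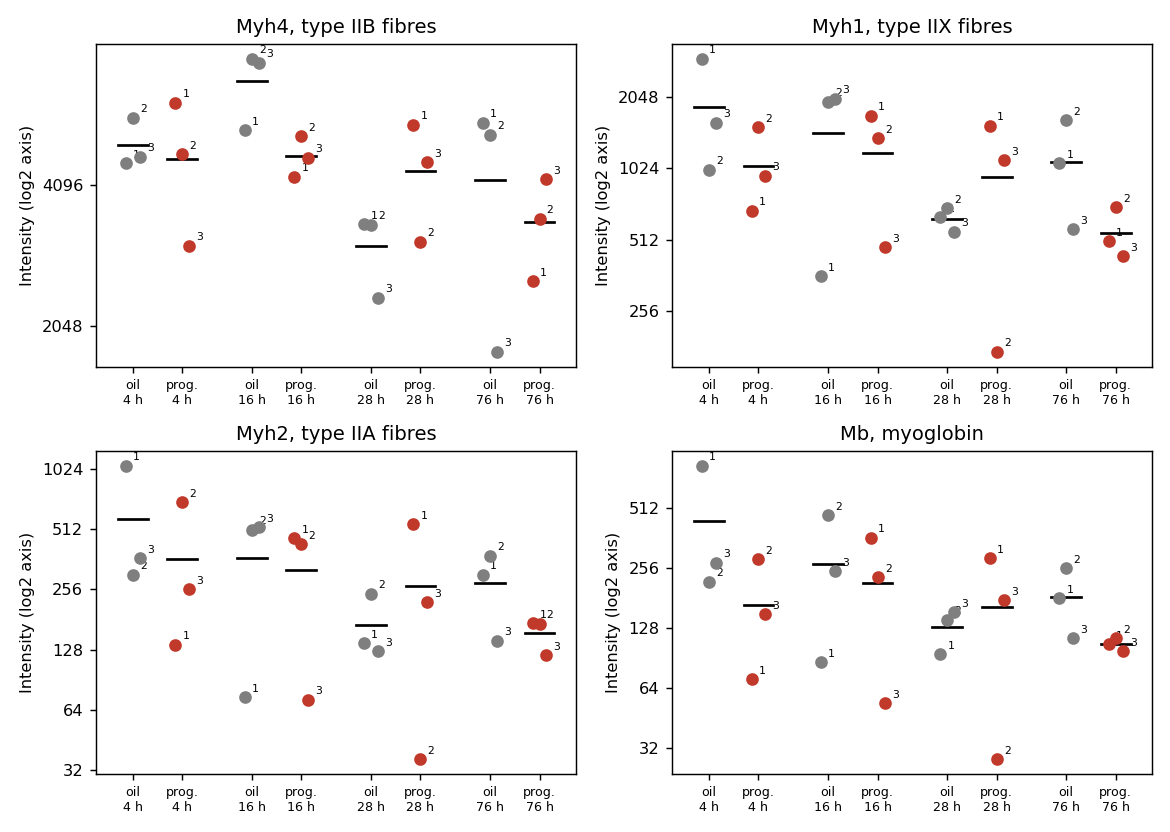
Intensity (log2 axis) of Myh4, Myh1, Myh2 and Mb in each array (points with replicate numbers; gray oil, red progesterone) with the mean of each group (bars), by time in h. Replicate 1 of oil at 16 h and replicate 3 of progesterone at 16 h are among the low points for Myh1, Myh2 and Mb and lie above the mean of the series for Myh4.

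The light chains divided in the same way into a bright fast set and a slow set near background. Myl1, the fast essential light chain, read 5297, 4883 and 4573 at 4 h, 5130, 7961 and 6631 at 16 h, 2793, 2483 and 1885 at 28 h and then 4691, 4654 and 1845 at 76 h in oil arrays. In progesterone arrays Myl1 read 5577, 3667 and 2847 at 4 h, 4526, 4471 and 4166 at 16 h, 4747, 2179 and 4278 at 28 h and then 1873, 2592 and 3441 at 76 h. The 28 h oil arrays all lay at 2793 or below, and at 16 h each oil array lay above each progesterone array.
Mylpf, the fast regulatory light chain, read 4176, 4548 and 3832 at 4 h, 4232, 7456 and 6592 at 16 h, 2091, 1976 and 1282 at 28 h and then 4406, 4287 and 961 at 76 h in oil arrays. In progesterone arrays Mylpf read 4887, 2809 and 1931 at 4 h, 3525, 4224 and 3668 at 16 h, 4312, 1743 and 3534 at 28 h and then 1699, 2237 and 2641 at 76 h. It kept close to Tnnc2 over the 24 arrays (r = 0.99), and its groups at 16 h also did not overlap.
Myl3, the essential light chain of slow fibres and the ventricle, read 56, 68.4 and 52.4 at 4 h, 39.97, 47.2 and 40.8 at 16 h, 39, 46.1 and 98.1 at 28 h and then 53.8, 42.2 and 65.7 at 76 h in oil arrays. In progesterone arrays Myl3 read 39.9, 35.6 and 54.9 at 4 h, 50.4, 54.2 and 39.6 at 16 h, 53.7, 45.2 and 46.4 at 28 h and then 34.6, 39 and 49.9 at 76 h. Its highest array was replicate 3 of oil at 28 h, where the fast genes were among their lowest.
Myl2, the regulatory light chain of slow fibres and the ventricle, read 135, 39.1 and 63.4 at 4 h, 42.6, 58.6 and 54.2 at 16 h, 26.7, 32.8 and 137 at 28 h and then 69, 53.8 and 39.97 at 76 h in oil arrays. In progesterone arrays Myl2 read 33, 44.2 and 35.8 at 4 h, 60.2, 66.2 and 42.2 at 16 h, 64.1, 40.5 and 57.1 at 28 h and then 48.5, 31 and 24.6 at 76 h. Its 2 high arrays were the same replicate 3 of oil at 28 h and replicate 1 of oil at 4 h, and all others lay at 69.0 or below.

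Replicate 3 of oil at 28 h was also the highest array for 4 of 10 listed heart genes, Myh6, Tnnt2, Nppb and Mybpc3, and not for the other 6. The summed intensity of 10 cardiac genes was 642 there, against 344 and 403 in the other two oil arrays at 28 h and 275 to 573 in the remaining groups. Tnnt2, the cardiac form of troponin T, read 69.6 there and 7.74 to 37.5 elsewhere. Myh6, the heavy chain of the atrium and of the adult mouse ventricle, read 27.4 there and at most 10.9 elsewhere. The array's median was 67.6, so Tnnt2 lay just above it and Myh6 far below. Tnni3 (28.9), Ryr2 (19.0), Myl4 (157), Nppa (13.0), Myl7 (9.14) and Actc1 (196) lay within their range on the other arrays. Actc1, the largest part of the sum, is also made in skeletal muscle, and Myh7 read 46.5. The part of heart transcripts in the Myl2 and Myl3 values was not tested.

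Myosin-binding protein C, which ties the thick filament together, has a fast form above the array median on 24 arrays and a slow form above it on 23. Mybpc2, the fast form, read 1116, 1396 and 994 at 4 h, 984, 2332 and 2102 at 16 h, 532, 478 and 262 at 28 h and then 1216, 1051 and 195 at 76 h in oil arrays. In progesterone arrays Mybpc2 read 1389, 772 and 404 at 4 h, 734, 891 and 889 at 16 h, 1280, 418 and 824 at 28 h and then 293, 405 and 645 at 76 h. It tracked Atp2a1 with r = 0.996, the highest of all pairs, and at 76 h replicate 3 of oil lay below all progesterone arrays.
Mybpc1, the slow form, read 429, 216 and 140 at 4 h, 95.4, 394 and 359.6 at 16 h, 91, 126 and 89.5 at 28 h and then 214, 264 and 105 at 76 h in oil arrays. In progesterone arrays Mybpc1 read 97.1, 263 and 123 at 4 h, 232, 229.9 and 79.9 at 16 h, 290.3, 53.6 and 160.2 at 28 h and then 123, 132 and 111 at 76 h. It followed Myh2 (r = 0.93) more closely than Myh4 (r = 0.60) or the slow Myh7 (r = 0.51), and its highest and lowest arrays were those of Myh2. The probe set used followed the muscle index with r = 0.81, and the other probe sets of Mybpc1 followed it with r = 0.24 and 0.63.

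Thin filament genes were led by actin and the fast troponins. Acta1, skeletal alpha-actin, ranged from 2097 to 9944, with oil arrays at 6745, 9944 and 8975 at 16 h and 4085, 4088 and 3036 at 28 h. Every 16 h oil array lay above every 28 h oil array.
Tnnt3, the fast tropomyosin-binding subunit of troponin, read 1988, 2560 and 2106 at 4 h, 2411, 5167 and 4472 at 16 h, 1016, 961 and 535 at 28 h and then 2526, 2173 and 431 at 76 h in oil arrays. In progesterone arrays Tnnt3 read 2480, 1186 and 897 at 4 h, 1802, 1809 and 1881 at 16 h, 2351, 824 and 1764 at 28 h and then 654, 953 and 1479 at 76 h. Its range of 12.0-fold was among the wider ones of the fast genes.
Tnnt1, the slow form of this subunit, read 194, 60.1 and 83.7 at 4 h, 32.1, 72.5 and 58 at 16 h, 48.2, 34.9 and 14.6 at 28 h and then 60.5, 68.7 and 43.1 at 76 h in oil arrays. In progesterone arrays Tnnt1 read 47.1, 124 and 51.1 at 4 h, 84.3, 64.3 and 15.1 at 16 h, 68.6, 22.1 and 41.7 at 28 h and then 40.8, 32.9 and 35.1 at 76 h. It exceeded the array median on 7 arrays, and its highest were replicate 1 of oil at 4 h and replicate 2 of progesterone at 4 h, also the highest for Myh2.
The fast inhibitory and calcium-binding subunits, Tnni2 and Tnnc2, ranged from 695 to 6105 and from 863 to 7022. Neb, the giant ruler of the thin filament, ranged from 107 to 1124. Together with Tnnt3, these had their lowest value on replicate 3 of oil at 76 h and their highest on replicate 2 of oil at 16 h.

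At the Z disc, which anchors thin filaments, both alpha-actinins could be read. Actn3, found in fast fibres only, read 1379, 2011 and 1369 at 4 h, 1582, 3560 and 3180 at 16 h, 736, 701 and 284 at 28 h and then 1613, 1409 and 214 at 76 h in oil arrays. In progesterone arrays Actn3 read 2074, 943 and 490.1 at 4 h, 952, 1232 and 1443 at 16 h, 1751, 677 and 1202 at 28 h and then 387, 623 and 943 at 76 h. With an SD within groups of 0.852 it was the fourth most variable member, and it followed Myh4 with r = 0.98.
Actn2, the form of all fibres, read 261, 106 and 127 at 4 h, 63.8, 143 and 102 at 16 h, 66, 62.8 and 58.6 at 28 h and then 97.4, 84.1 and 50.6 at 76 h in oil arrays. In progesterone arrays Actn2 read 53.7, 112 and 71.9 at 4 h, 129.8, 96.2 and 31.4 at 16 h, 111, 24 and 97.7 at 28 h and then 39.1, 56.5 and 48 at 76 h. It followed Mb (r = 0.95) and exceeded the array median on 14 arrays.
Of the other Z disc genes, Myoz1, a calcineurin-binding protein of fast fibres, ranged only 3.10-fold (444 to 1374). Tcap, which caps titin at the Z disc, ranged from 77.2 to 668, Myot from 92.2 to 882 and Ldb3 from 119.8 to 482. Ttn, the spring that spans from Z disc to the middle of the sarcomere, ranged from 364 to 2864. Des, the intermediate filament of muscle, which smooth muscle cells also make, ranged from 191 to 692.

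Genes of calcium handling kept to the common pattern. Atp2a1, the calcium pump of fast fibres, ranged from 765 to 5414, Casq1, the calcium store protein, from 196 to 1574, and Pvalb, the calcium buffer of fast fibres, from 543 to 6083. Ryr1, the calcium release channel, ranged from 105 to 957, and Cacna1s, its voltage sensor, from 26.6 to 174. All 5 lay highest on replicate 2 of oil at 16 h, and Ryr1 followed the other members more closely than any other gene did (r = 0.98).

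In energy supply, Mb stood apart from the glycolytic enzymes. Mb, which stores oxygen in oxidative fibres, read 837, 220 and 273 at 4 h, 86.5, 474 and 248 at 16 h, 95.3, 142 and 154 at 28 h and then 182, 257 and 114 at 76 h in oil arrays. In progesterone arrays Mb read 71.2, 284 and 151 at 4 h, 366, 232 and 54 at 16 h, 289, 28.3 and 177 at 28 h and then 106, 114 and 98.2 at 76 h. Its range was 29.6-fold, the widest of the members, and it followed Myh2 with r = 0.95 and Myh4 with r = 0.39.
Ckm, the cytosolic creatine kinase of muscle, ranged from 721 to 6726, and its mitochondrial partner Ckmt2 from 57.4 to 412. The glycolytic enzymes Eno3 and Pgam2 ranged from 439 to 2863 and from 186 to 1282, with the block pattern of Acta1. Sln, a small regulator of the calcium pump and no member, read 229 on replicate 1 of oil at 4 h, the array highest for Mb, and 9.37 to 66.8 elsewhere.

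Fast and slow fibre genes were then compared as indices over 14 fast genes and the 5 slow genes that passed the filter. The fast index ran from -1.45 to 1.33 and the slow index from -0.66 to 1.19. Of the 5 slow genes, Mybpc1 alone lay above the array median on most arrays (23 of 24). It followed the fast Myh2 (r = 0.93) more closely than the slow Myh7 (r = 0.51). Pairs of fast genes had a median r of 0.97 (91 pairs), pairs of slow genes 0.46 (10 pairs) and mixed pairs 0.30 (70 pairs) over the 24 arrays. The slow genes lay nearer to background than the fast ones, and Myl2, Myl3 and Myh7 exceeded the array median on 3 arrays each, all of them oil arrays. Because these genes passed the filter only through oil arrays, no difference between progesterone and oil is read from the slow index. The fast minus the slow index was highest on replicate 2 of oil at 16 h (0.96), replicate 1 of progesterone at 4 h (0.93) and replicate 3 of oil at 16 h (0.86), and lowest on replicate 3 of oil at 76 h (-1.29) and replicate 3 of oil at 28 h (-1.13). The other two progesterone arrays of 4 h gave -0.17 and -0.48, so a single group spanned much of the range. The slow index spanned 1.86 and the fast index 2.78. The arrays at the 2 ends of the difference were also highest (1.20) and lowest (-1.08) in the muscle index, so it does not measure fibre balance alone. On replicate 3 of oil at 28 h the slow genes disagreed: Myl2 (137) and Myl3 (98.1) were at their highest, Tnnt1 (14.6) at its lowest.

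**Figure D5:**
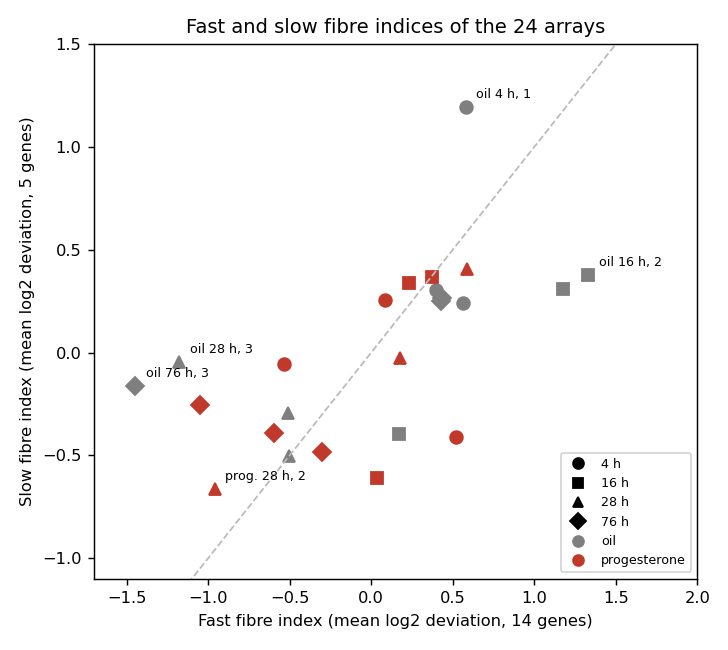
Slow fibre index (5 genes, vertical axis) against fast fibre index (14 genes, horizontal axis) of the 24 arrays, both as mean log2 deviations, with shapes for time, gray for oil, red for progesterone and a dashed line of equal deviation. Replicate 1 of oil at 4 h lies highest in the slow index (1.19), the oil arrays at 16 h lie right of the line, and replicates 3 of oil at 28 h and 76 h lie far to its left.

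Whether progesterone changed muscle transcripts was asked at each time against the oil group killed at the same hour. At 4 h, none of the 35 genes passed an adjusted p of 0.05 in limma's test over all genes, where 0.186% of all genes did, and 3 had an unadjusted p under 0.05, against 12.6% of all. The median log2 difference was -0.53, against -0.01 over all genes, and all 35 were below 0, as were 52.4% of all genes. This common sign depended on the controls and the weighting: with oil arrays of the remaining times as controls the median was -0.01 and 19 of 35 were below 0, and with array weights the median was 0.00 and 17 were below 0. Myh7, Myl2 and Myl3, which passed the filter only through oil arrays, are counted among the 35 at each time and in the index. Their 4 h differences (-0.64, -0.90 and -0.46) can follow from that filter, and no progesterone effect is read from these genes. The arrays did not overlap for 2 genes, both lower with progesterone, against 12.8% of all genes. Tcap read 348, 358 and 251 in oil and 199, 132 and 100.3 in progesterone, a log2 difference of -1.19 ± 0.40 (SE, limma adjusted p = 0.194). Des read 671, 537 and 492 and 397, 297 and 348, a difference of -0.70 ± 0.24 (limma adjusted p = 0.195). A second, dimmer probe set of Des, above the array median on 3 arrays, gave 0.15 at 4 h and -0.43 at 76 h. Its r with the muscle index was -0.13.
The index difference at 4 h was -0.55, with a pooled SD of 0.336 between arrays. The log2 ratio of 3′ to 5′ actin control probes, a sign of RNA integrity, was 0.425 ± 0.0150 (SD, n = 3) in oil and 0.557 ± 0.0448 in progesterone at 4 h, and its part in these differences was not tested.

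At 16 h again none of the 35 genes passed, where 0.308% of all genes did, and 10 had an unadjusted p under 0.05, against 17.7% of all. The median log2 difference was -0.68 (all genes -0.07), and 31 genes were below 0, against 64.7% of all genes. With oil arrays of the remaining times as controls the direction turned, to a median of 0.29 with 9 of 35 below 0. For 17 genes each progesterone array lay below each oil array, against 11.7% of all genes. Most members moved as a block, so counts of members, here and in the other comparisons, are not counts of separate observations. Tcap read 183, 668 and 473 in oil and 179.6, 216 and 122 in progesterone, so that these overlapped, with a log2 difference of -1.20 ± 0.40 (SE, limma adjusted p = 0.169, the lowest of the members). Ryr1 read 355, 957 and 791 in oil and 341, 314 and 248 in progesterone, without overlap, and did not pass. The index difference was -0.62 (pooled SD 0.462). Without replicate 1 of oil, the lowest oil array of the time, the median was -1.05 and still none passed. With arrays weighted by their quality, 20 genes were called lower and 2 higher at 16 h, in a fit that called 59.4% of all genes.

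At 28 h the direction was the opposite one. The median log2 difference was 0.56 (all genes 0.00), 33 of 35 genes were above 0, against 50.9% of all genes, and the index difference was 0.54 (pooled SD 0.549). Tpm2 alone passed, with a rise, where 2.53% of all genes passed and 1.94% rose, and 4 of the 35 had an unadjusted p under 0.05, against 12.4% of all genes. It was also the one gene whose arrays did not overlap, against 6.79% of all genes for higher values. Across the other 34 genes the lowest adjusted p was 0.360. The oil arrays of this time were all low in muscle genes, and the index of replicate 2 of progesterone (-0.90) lay below all 3. Without that array the median was 1.06 and Tpm2 was still the only member called. When oil arrays of the remaining 3 times served as controls, the median was -0.46 and no member passed.

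At 76 h, when 17.8% of all genes were called, 1 of the 35 passed, again Tpm2 with a rise, where 11.1% of all genes rose. Of the 35, 3 had an unadjusted p under 0.05, against 29.5% of all genes. The median log2 difference was -0.50 (all genes 0.02), and 34 of 35 genes were below 0, against 46% of all genes. Progesterone arrays lay all below oil arrays for 3 genes, Des, Tnnt1 and Mb, against 18.9% of all genes, and all above for Tpm2 alone, against 25.8%. Des read 398, 349.7 and 286 in oil and 191, 238 and 282 in progesterone, a log2 difference of -0.54 ± 0.24 (SE, limma adjusted p = 0.123, the lowest after Tpm2). The index difference was -0.48 (pooled SD 0.620). The value depended on 1 array. Without replicate 3 of oil at 76 h, 34 members passed the filter, the median was -1.07, and 12 were called lower beside Tpm2 higher, with 14% of all genes called. With oil arrays of the remaining times as controls, 12 were called lower and Tpm2 higher, with 32.6% of all genes called.
Marker genes of other cells moved at the same time. The summed intensity of 10 luminal epithelial genes was 16150 to 18280 with progesterone and 6084 to 7455 with oil at 76 h, and that of 8 white adipocyte genes was 52020 to 59420 against 60220 to 61520. For 9 brown adipocyte genes, of which 3 of 7 tested fell, the sum was 1646 to 2035 with progesterone against 3620 to 4507 with oil, and for 4 basal genes, all of which rose, 1755 to 2086 against 460 to 863. The part of these shifts in the lower muscle values at 76 h was not tested.

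Among all genes the SE of a log2 difference had a median of 0.14, and among the 35 muscle genes 0.44. A test of whether the progesterone difference itself differs between the 4 times called 1 of 35 genes, Tpm2, against 10% of all genes. That count changed in 20 of 24 fits that left out 1 array.

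Tpm2, beta-tropomyosin, lies along actin in skeletal muscle and is made by smooth muscle and myoepithelial cells as well. It read 1735, 1671 and 1359 at 4 h, 1664, 1909 and 1811 at 16 h, 1392, 1326 and 1329 at 28 h and then 1500, 1492 and 1256 at 76 h in oil arrays. In progesterone arrays Tpm2 read 1586, 1759 and 1300 at 4 h, 1805, 2143 and 1852 at 16 h, 2014, 1566 and 1912 at 28 h and then 2113, 2005 and 2046 at 76 h. The oil arrays stood below the progesterone arrays without overlap at 28 and at 76 h, and the groups overlapped at 4 and 16 h.
At 28 h the means were 1349 ± 37.3 (SD, n = 3) with oil and 1831 ± 235 with progesterone, a log2 difference of 0.43 ± 0.11 (SE, limma adjusted p = 0.0392). At 76 h they were 1416 ± 139 and 2055 ± 54.9, a log2 difference of 0.54 ± 0.11 (limma adjusted p = 0.00133). The 28 h call was lost in 7 of 24 fits that left out 1 array, with an adjusted p of 0.275 without replicate 1 of progesterone at 28 h, and it was lost when the muscle index of the other members was held fixed (difference 0.32, adjusted p = 0.0864). The 76 h call was kept in each of the 24 fits and with that index held fixed (difference 0.65), and was lost when the probe sets of a gene were averaged (difference 0.22, adjusted p = 0.588).
The 4 probe sets of Tpm2 disagreed. The brightest, used here, and the second brightest followed the muscle index with r = 0.34 and 0.48 and gave log2 differences of 0.54 and 0.41 at 76 h. The third and the fourth followed it with r = 0.84 and 0.87 and gave 0.01 and -0.07. In a list of 10 smooth muscle and myoepithelial genes, 5 rose at 76 h, namely Acta2, Cnn1, Tagln, Myl9 and Actg2, and their list's summed intensity was 13000 to 14390 with progesterone and 9101 to 9904 with oil. At 28 h, 1 of the 10 rose, and the sums were 10450 to 12300 and 8911 to 9902. The part of those cells in the Tpm2 rise was not tested.

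Most muscle genes differed between the oil groups, which received no progesterone. An F-test over the 4 oil groups called 22 of the 35 members, against 12.2% of all genes. By role these were 11 of the 14 fast genes and 0 of the 5 slow genes. Of the slow genes, Myh7, Myl2 and Myl3 exceeded the array median on 3 arrays each, all oil arrays, and Tnnt1 on 7. Mybpc1 had an SD within groups of 0.824. With signals this low or this variable, the counts are no comparison of fibre types. The mean muscle index was 0.53 ± 0.21 (SD, n = 3) at 4 h, 0.75 ± 0.61 at 16 h, -0.61 ± 0.23 at 28 h and then -0.11 ± 0.84 at 76 h. The 28 h oil arrays lay below every oil array of 4 and 16 h, while replicate 3 at 76 h lay below them.
Pgam2, muscle phosphoglycerate mutase, read 582, 629 and 513 at 4 h, 585, 1282 and 898 at 16 h, 246, 269 and 186 at 28 h and then 549.6, 582 and 189 at 76 h in oil arrays (limma F-test, adjusted p = 0.00893). Tnni2 followed with an adjusted p of 0.0129, Myl1 with 0.0130 and Casq1 with 0.0149. Myh4 (adjusted p = 0.0513) lay just outside, and Myh1 (0.387), Myh2 (0.484) and Mb (0.396), the members with the widest spread within groups, far outside. The count fell to 3 (Myl1, Des and Pgam2) without replicate 2 of oil at 16 h, to 8 without replicate 3 of the same group and to 11 without replicate 3 of oil at 28 h. Myl1 and Pgam2 were called in each of the 24 fits that left out 1 array.
Matrix genes of fibroblasts moved with the 28 h oil arrays. All 6 of a list were called between the oil groups, and their summed intensity was 29250 to 34350 in oil at 28 h and 39930 to 47840 in the other oil groups. Its part in the muscle differences was not tested. Over all 8 groups the F-test called 23 of the 35 members, against 39.6% of all genes.

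Of 12317 other tested genes, 0.357% had an r above 0.8 with the muscle index, which is 44 genes. The 20 highest were Myom1 and Cmya5 (both r = 0.97), Klhl41, Apobec2, Mypn, Smpx, Pfkm, Dhrs7c, Srl, Trdn, Tmod4, Mlf1, Myom2, Hjv, Rpl3l, Adssl1, Ak1, Sh3bgr, Trim63 and Rbfox1 (r = 0.92), of which 11 stand on a wider list of skeletal muscle genes. Myom1 and Myom2 tie myosin at the middle of the sarcomere, Pfkm is muscle phosphofructokinase, and Trdn holds the calcium release complex together. Myom1 ranged from 87.4 to 604 and Smpx, a small protein of striated muscle, from 40.2 to 450.
That list of 61 genes had 58 on the array and 47 that passed the filter. Of these, 21 had an r above 0.8 with the index, and 18 were called between the oil groups. The medians of their progesterone differences were -0.26 (4 h), -0.45 (16 h), 0.31 (28 h) and -0.33 (76 h). None was called at 4, 16 or 28 h, and at 76 h 1 rose and 4 fell, where 11.1% of all genes rose and 6.7% fell, so that 4 of 47 is near the share of all genes and 1 of 47 below it. The 4 were Cox7a1, Cox8b, Capn3 and Slc2a4, of which Cox7a1, Cox8b and Slc2a4 are also made in fat, with log2 differences of -0.99, -1.24, -0.95 and -0.88. Fbxo32, a ubiquitin ligase known from muscle wasting, rose at 76 h (limma adjusted p = 6.05e-07), from 245, 231 and 192 in oil to 647, 626 and 600.3 with progesterone, and its r with the muscle index was -0.03.
The developmental regulators Myod1, Myf5, Myf6, Myog and Pax7 lay below the array median on all 24 arrays, while Cdh15, an adhesion molecule of muscle precursors, lay above it on 17. Of 8 genes of the motor end plate, 2 subunits of the acetylcholine receptor passed the filter, Chrnd (above the median on 24 arrays) and Chrnb1 (on 23). Of the genes on the 12 other marker lists that passed the filter, none outside the 35 members had an r above 0.8 with the index. The highest were 0.76 in the smooth muscle and myoepithelial list and 0.76 in the brown adipocyte list. Genes that did not pass have no r, and only 2 of 10 cardiac and 2 of 8 end plate genes passed.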

How the data were processed

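Per the labels' protocols, Trizol was used for total RNA, and biotin-labelled cRNA made in 1 cycle was hybridized to arrays of the Affymetrix Mouse Genome 430 2.0 design. The deposited values are linear intensities for 45101 probe sets, and how the authors summarized and scaled them is not given in the sources used here. Values under the 10th percentile were raised to it (7.38) before the log2, without further normalization because array medians spanned 0.16 (limit 0.3). Genes were named by the platform annotation, through probe sets with 1 symbol (34945 of 45101), and filtered on the array median (at least 3 of 24 arrays). One limma 3.58.1 fit in R 4.3.3 (statmod 1.5.0) held 8 group means, 16 residual degrees of freedom and a variance trend over 12352 genes, with Benjamini-Hochberg adjustment and calls under 0.05 (two-sided). The fit was tested on simulated data. Index values, sums and correlations are descriptions without a test. Arrays of a group are labelled as biological replicates, each a pool of 5 mice, and p-values measure the spread between such pools; with 3 arrays per group, their number limits the precision. Promoters are from RefSeq (GRCm38.p6), and the MEF2 consensus was added after a first search. Members, lists and tests were chosen with earlier results of these data known. Named with values on all arrays were the 4 members of widest and the 2 of smallest spread within groups and the fast and slow paralogue pairs that passed the filter, and other members by range. Beyond these, the 20 genes most like the index and a few genes per marker list were named. Outside this rule, Sln, the heart genes and the genes singled out by array were chosen after their values were seen. The alternatives changed scaling, floor, filter, probe set rule, variance model, array weights, controls and single arrays.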

Additional observations from a re-analysis of the deposited data

Results flagged for a closer look

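The progesterone difference of Tpm2 differed between the 4 times in limma's F-test (adjusted p = 0.0445 over 12352 genes). Its log2 differences were -0.04 (4 h), 0.11 (16 h), 0.43 (28 h) and 0.54 (76 h), each with an SE of 0.11, and progesterone arrays were all above oil arrays at 28 and 76 h. No other member of the 35 passed this test. The count of 1 changed in 20 of 24 fits that left out 1 array (range 0 to 11) and in 8 of 13 other settings. The brighter probe sets of Tpm2 carried the rise at 76 h and the dimmer ones did not (0.54 and 0.41 against 0.01 and -0.07).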

How the results depend on the processing

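Of the counts of called members, 1 gene in the test of differences between times became 0 with quantile normalization, median centring, averaged probe sets, no filter, a variance without trend or an adjusted p under 0.01, 2 with an adjusted p under 0.1, and 12 with array weights. The single call at 28 h became 0 with median centring, averaged probe sets, no filter, no trend, an adjusted p under 0.01, a fit to the 6 arrays of the time, or oil arrays of other times as controls. At 76 h the count of 1 became 0 with averaged probe sets and 2 in the fit to 6 arrays. It became 6 with array weights (39.1% of all genes called) and 13 against other oil arrays (32.6%). At 4 h array weights gave 5, all lower, where 22.4% of all genes were called. These were Actn2, Mb and the genes that passed the filter only through oil arrays, Myh7, Myl2 and Myl3. At 16 h array weights gave 22 (59.4% of all genes called), while other oil arrays gave 1 (4.53%). Among the oil groups 22 became 5 without the filter, 9 with a robust variance and 1 at an adjusted p under 0.01, and over 8 groups 23 became 9, 9 and 8. The cause was not tested, apart from the stricter thresholds.

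With 1 array left out, the counts ranged from 0 to 1 at 4 h, 0 to 0 at 16 h, 0 to 1 at 28 h, 1 to 13 at 76 h, 0 to 11 for the difference between times, 3 to 24 among oil groups and 10 to 25 over 8 groups. The 11 and the 13 came without replicate 3 of oil at 76 h. The index differences ranged from -0.72 to -0.31 at 4 h, -0.97 to -0.40 at 16 h, 0.23 to 0.95 at 28 h and -0.99 to -0.23 at 76 h. No range is given for the fast minus slow differences, because 3 of their 5 slow genes passed the filter only through oil arrays.

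Same-numbered oil and progesterone arrays deviated together with r from -0.02 to 0.35, above 0.1 in 6 of 12 pairs. In 3, 4, 3 and 5 of 6 arrays the best match was the own number. These values do not settle whether arrays of the same number share a preparation, and the main fit used no pairing. With the replicate block, 23 members were called between oil groups and 23 over 8 groups, and the other counts were 0, 0, 1 and 1 at 4, 16, 28 and 76 h and 1 between times. Slow genes near the array median are read with little signal over background.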
